A study of Caenorhabditis elegans with 2 samples.

Results

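The 10 genes described here encode enzymes that build and modify long-chain fatty acids in Caenorhabditis elegans: the desaturases fat-1 to fat-7 and the elongases elo-1, elo-2 and elo-5. They were taken from a list of typical targets of metabolic nuclear receptors. The rule uses no measured value, but the list was drawn up with earlier results of these data known. They make up 10 of 19973 protein-coding genes on the 6 chromosomes. The data come from chromatin immunoprecipitation followed by sequencing (ChIP-seq), which maps the DNA regions recovered with a tagged protein. The protein was NHR-11, a nuclear hormone receptor, fused to eGFP and expressed from the integrated transgene wgIs305 in strain OP305. All animals carried the unc-119(ed3) mutation and were whole L1 larvae, males and females pooled, the stage that hatches from the egg. Both libraries, 2 biological replicates, belong to a single group, and no other stage, genotype or untagged strain was part of the series, so nothing below compares conditions. Whole larvae were used, so a peak names a gene and not the tissue in which the receptor was bound.

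Desaturases insert double bonds into fatty acyl chains and elongases, with their partner enzymes, lengthen them by further carbon units. Worms make their polyunsaturated fatty acids from saturated precursors by alternating these steps. The stearoyl- and palmitoyl-CoA desaturases act first, FAT-2 then makes linoleic acid from oleic acid, and FAT-1, FAT-3, FAT-4 and ELO-1 act further down. The nuclear receptors NHR-49, NHR-80 and NHR-13 are known in C. elegans to act on the expression of fat-5, fat-6 and fat-7.

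For each gene, every peak was taken whose summit lay in the gene body or within 2 kb upstream of the 5' end. The peak lists on the ce11 build held 30000 candidates for each replicate and 28727 for the pooled replicates. A further list held 1141 of the pooled peaks, those that passed the authors' filter on the irreproducible discovery rate (IDR), and these are named called peaks here. The signal value of a peak is the authors' own, with no stated scale, and served only to rank and describe peaks within a list. The lowest signal of a called peak was 49.9, and no uncalled candidate of the pool reached it. Read counts are not part of these lists, so depth is unknown and no counting error can be attached to a value. Candidate lists are long and reach down to weak regions, with lowest signals of 8.49 in replicate 1, 7.14 in replicate 2 and 13.6 in the pool. As a check of the tagged gene, no list held a peak in the window of nhr-11, and the called list held 1 in the window of the rescue marker gene unc-119.

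One of the 10 genes, fat-2, had a called NHR-11 peak. Across all protein-coding genes 6.7% had one, and 1 of 10 is near that background. A further 8 genes had only candidates below the called range, and fat-1 had no peak in any list. With fat-2 included, 9 of 10 genes had at least 1 pooled candidate, where the share over all protein-coding genes was 65.6%. The same 9 genes had a candidate in replicate 1, where the share over all protein-coding genes was 68.4%, and in replicate 2, where it was 70.5%. Windows had a median length of 4249 bp for the 10 genes and 4027 bp for all protein-coding genes, and held 0.372 and 0.284 pooled candidates per kb. In both densities a candidate in overlapping windows was counted once for each window, as was one shared by fat-3 and fat-4.

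The sequences under the strongest pooled candidates are shown for the 5 genes in which that summit lay upstream and outside any annotated gene, because they let the called region of fat-2 be set beside uncalled ones. Each reaches 100 bp to either side of the summit and runs 5′ to 3′ on the strand of the gene. Capitals mark matches on either strand to any of 6 words. Nuclear receptors are known to recognise the core site AGGTCA and its relatives: the word AGTGCA was searched, and so was the word AAGTCA. The word TGATAA is of the GATA factor type. The word GAGAGA and the further word GACGCA were frequent under called peaks in an earlier look at these data. The sequence is that of the RefSeq genome of the same assembly (WBcel235, which ce11 names). The elo-5 stretch also holds the piRNA genes 21ur-13654 and 21ur-14146, between 5377818 and 5377842; the other stretches overlap no annotated exon.
fat-2, chrIV:13322575-13322775, plus strand: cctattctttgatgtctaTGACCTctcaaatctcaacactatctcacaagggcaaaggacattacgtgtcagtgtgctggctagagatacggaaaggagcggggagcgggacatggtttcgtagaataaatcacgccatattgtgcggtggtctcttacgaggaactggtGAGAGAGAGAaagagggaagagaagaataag
elo-2, chrIV:17467749-17467949, minus strand: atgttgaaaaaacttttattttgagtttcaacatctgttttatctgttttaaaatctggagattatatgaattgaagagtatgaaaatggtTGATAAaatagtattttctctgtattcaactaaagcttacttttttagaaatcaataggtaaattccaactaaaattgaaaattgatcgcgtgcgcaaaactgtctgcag
elo-1, chrIV:9525094-9525294, plus strand: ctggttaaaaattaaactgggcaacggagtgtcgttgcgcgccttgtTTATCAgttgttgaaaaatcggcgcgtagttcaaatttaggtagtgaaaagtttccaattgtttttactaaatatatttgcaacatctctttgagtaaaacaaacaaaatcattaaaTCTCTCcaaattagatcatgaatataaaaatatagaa
fat-5, chrV:17723939-17724139, plus strand: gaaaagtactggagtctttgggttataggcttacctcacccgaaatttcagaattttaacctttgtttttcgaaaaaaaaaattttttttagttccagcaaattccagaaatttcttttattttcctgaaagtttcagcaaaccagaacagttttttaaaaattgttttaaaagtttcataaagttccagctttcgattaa
elo-5, chrIV:5377685-5377885, minus strand: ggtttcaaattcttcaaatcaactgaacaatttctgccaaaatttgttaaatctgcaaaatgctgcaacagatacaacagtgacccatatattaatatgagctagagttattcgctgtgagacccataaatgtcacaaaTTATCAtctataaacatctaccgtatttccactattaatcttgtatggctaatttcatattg

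fat-2 encodes the desaturase that turns oleic acid into linoleic acid, and lies at IV 13323873 to 13326395 on the plus strand (WBGene00001394). Its called peak spanned IV 13322490 to 13322859, with the summit 1198 bp upstream of the gene. The signal was 45.1 in replicate 1 and 43.2 in replicate 2, and 79.2 in the pool. These values gave rank 459 in replicate 1, rank 432 in replicate 2 and rank 515 in the pool, so the replicates placed it at nearly the same height. The replicate 1 summit lay 66 bp from the pooled one and the replicate 2 summit 7 bp. No other protein-coding 5' end was nearer to the summit than that of fat-2. A distance of more than 1000 bp to the nearest protein-coding 5' end was found for 388 of the 1141 called peaks (34.0%). The peak lay in the 5061 bp between fat-1 and fat-2, which point the same way, and 3864 bp beyond the 3' end of fat-1. The region is the richest in G and C of all pooled candidates at the 10 genes, with 52.5% within 50 bp of the summit. The median was 33.7% over the 15 candidates at these genes, 33.7% over all pooled candidates and 45.5% over called peaks. None of the 6 words fell within 50 bp of the pooled fat-2 summit, while GAGAGA fell within 50 bp of the replicate 1 summit. Within 100 bp of the pooled summit there was 1 match to AGGTCA, as its complement TGACCT, and a GAGAGA run, both capitalised above. Of all called peaks, 4.73% held AGGTCA and 44.1% held GAGAGA within 100 bp. At elo-1, too, neither match shown lies wholly within 50 bp of the summit.

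The other candidates at fat-2 were weak and were not shared between the replicates. Replicate 1 had one 371 bp upstream, with a signal of 10.5 and rank 19551, and one 1853 bp into the gene with a signal of 8.60. Replicate 2 had one 1464 bp into the gene with a signal of 10.7 and one at 600 bp, in a coding exon, with a signal of 8.44. None of these was in the pooled list, which held no second candidate at fat-2.

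**Figure D1:**
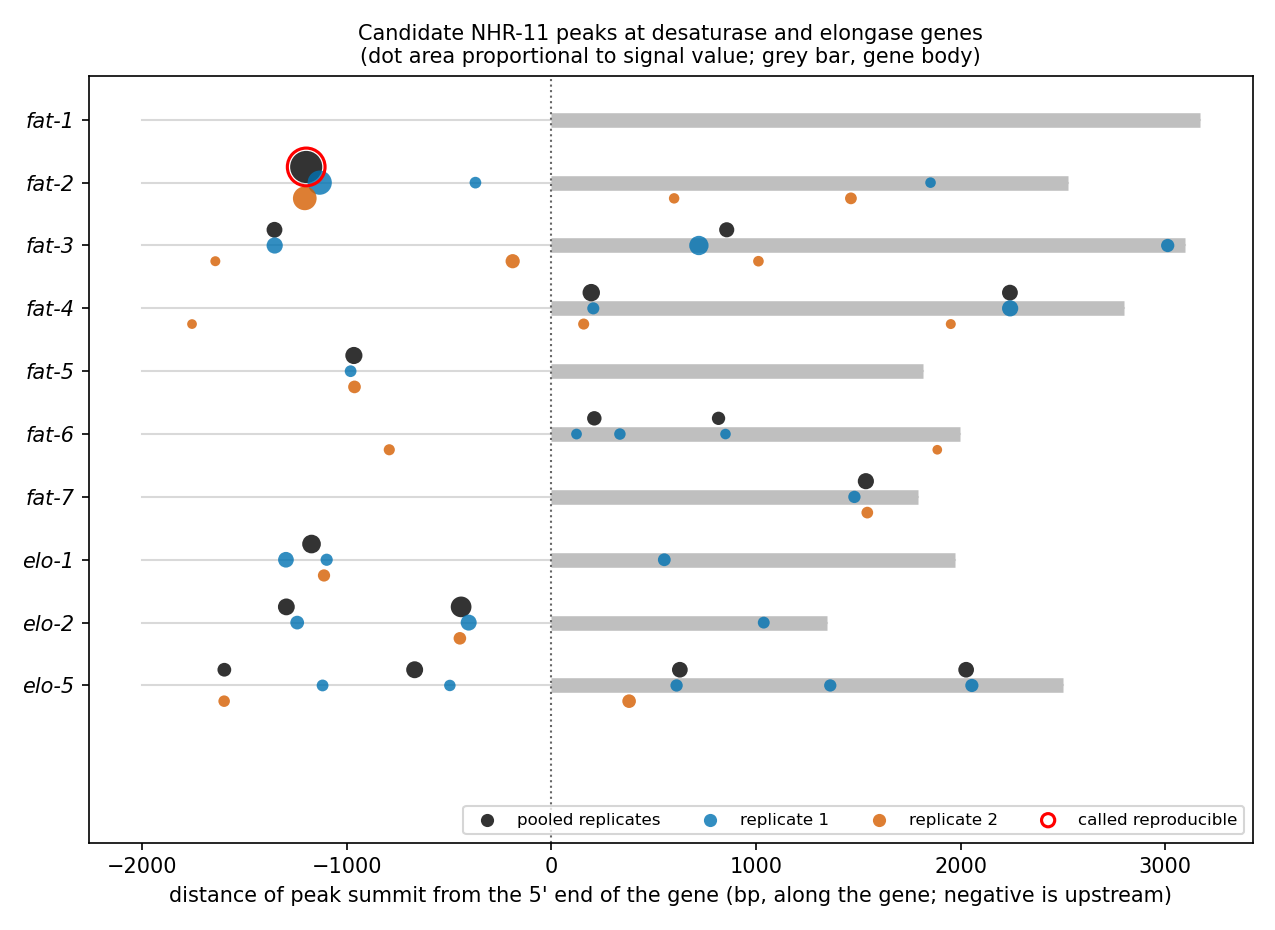
Summits of candidate peaks at the 10 genes (rows) by distance from the 5' end of each gene in bp along the gene, for the pooled list, replicate 1 and replicate 2; dot area is proportional to the signal value, grey bars are gene bodies and the red ring marks the called peak. All 3 lists place a large dot near 1198 bp upstream of fat-2, the row of fat-1 is empty, and many small dots have no partner in the other replicate.

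fat-1, whose product converts omega-6 to omega-3 fatty acids, was the gene without a peak. It lies at IV 13315644 to 13318811 on the plus strand (WBGene00001393), and its window of 5168 bp was the longest of the 10. The summit nearest its 5' end was 3650 bp away in the pool (signal 16.4), 3135 bp in replicate 1 (10.9) and 3448 bp in replicate 2 (10.1). All of these lay outside the window. Of its 30-base words 96.1% occurred once in the genome, the lowest share of the 10 genes, which otherwise ranged from 98.3% for elo-2 to 100% for fat-3. Its neighbour fat-2, whose 5' end lies 8229 bp from that of fat-1, thus had the strongest peak of the family and fat-1 none. The coding sequences of fat-1 and fat-2 were 62.6% identical over aligned bases. The same measure gave 59.7% for fat-1 and the elongase gene elo-5, so 62.6% is little above the value of a desaturase and elongase pair.

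The stearoyl- and palmitoyl-CoA desaturases, which are the best known nuclear receptor targets of the family, had no called peak. With 6.7% called over all protein-coding genes, fat-5, fat-6 and fat-7 are too few for this absence to differ from the background. fat-5, which acts on palmitic acid, lies at V 17725004 to 17726818 (plus strand) and had 1 candidate in each list. Its summit was 965 bp upstream in the pool, 981 bp in replicate 1 and 962 bp in replicate 2. The signal was 10.6 in replicate 1 (rank 19186), 12.4 in replicate 2 (rank 8459) and 22.6 in the pool (rank 7964). Both replicates thus placed a weak candidate at nearly the same position. The nearest called summit was 3874 bp from the 5' end, downstream of the gene, with a signal of 63.0, and the nearest protein-coding 5' end to that summit was that of twk-42.

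fat-6 and fat-7, which convert stearic to oleic acid, had coding sequences 84.1% identical to each other, the highest value in the family. Of the 30-base words in each window, 99.2% occurred once in the genome; how reads were placed between these copies was not tested. fat-7 (V 7151353 to 7153146, minus strand) had 1 candidate, in a coding exon, 1537 bp from the 5' end. The signal was 11.7 in replicate 1, 10.6 in replicate 2 and 20.1 in the pool (rank 11264). The nearest protein-coding 5' end to it was that of F10D2.8, 895 bp away, so this candidate may count for either gene. It held the single AGGTCA word found within 50 bp of a pooled summit at the 10 genes.

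fat-6 (IV 11913692 to 11915687, minus strand) had the lowest strongest pooled candidate of the 9 genes. Its pooled candidates had signals of 16.1 at 210 bp (rank 20066) and 13.7 at 817 bp (rank 28280), both in introns. Replicate 1 had candidates of 10.2, 8.88 and 8.60 at 335, 123 and 851 bp into the gene. Replicate 2 had candidates of 9.53 at 792 bp upstream and 7.22 at 1886 bp into the gene. The upstream one was nearer to the 5' end of ZK822.9, at 532 bp, than to that of fat-6. No pooled candidate at fat-6 overlapped one of replicate 2.

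**Figure D2:**
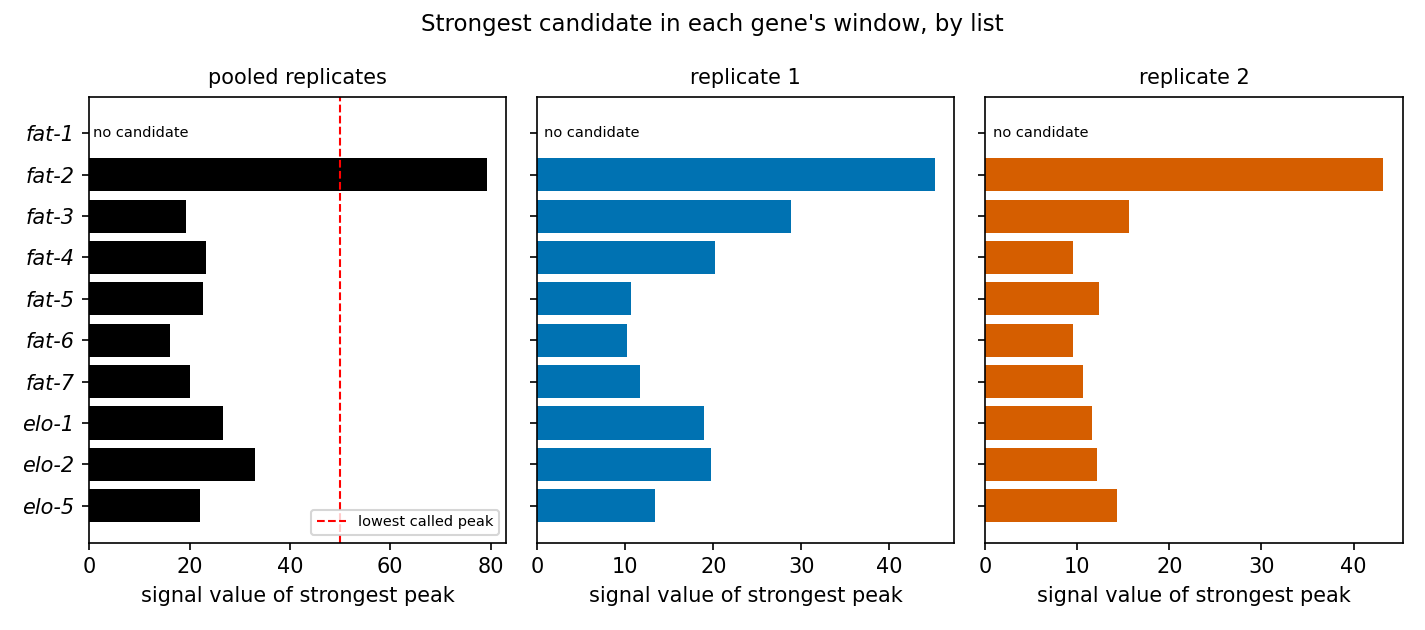
Signal value of the strongest peak in the window of each gene (bars, from 0) in the pooled list, replicate 1 and replicate 2, each on its own axis; the dashed line is the lowest called signal, 49.9. The bar of fat-2 alone passes the line, fat-3 is second in both replicates but not in the pool, and fat-1 has no candidate.

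fat-3 and fat-4 lie head to tail on chromosome IV with 796 bp between them, and their windows share a candidate. FAT-3 makes gamma-linolenic acid and FAT-4 makes arachidonic and eicosapentaenoic acid. Among the 9 pooled candidates of the family with a partner in each replicate, the gap in rank was largest at the shared candidate, with 2819 in replicate 1 and 26494 in replicate 2. The next largest was at a candidate within fat-3 (IV 9803023 to 9806119, plus strand). In replicate 1 fat-3 had a candidate in an intron, 721 bp into the gene, of signal 28.8 and rank 1108, which places it among the 1141 highest of that replicate. In replicate 2 the overlapping candidate had a signal of 8.70 and rank 20842, with its summit 291 bp away. In the pool the signal there was 17.6 and the rank 16126, so the peak was not called. Of the 1141 highest candidates of replicate 1, 2 ranked past 16000 in the pool or were missing from it, and these same 2 ranked past 20000 or were missing in replicate 2, as did 77 of the 1141 in all. The limits for that count were chosen after the values of fat-3 were seen. Counted by the 1141 highest of each replicate, 2 of 10 genes (fat-2 and fat-3) had one in replicate 1, where the share over all protein-coding genes was 6.73%, and 1 of 10 (fat-2) in replicate 2, where it was 6.51%.

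Replicate 2 placed its own strongest candidate of fat-3 elsewhere, 189 bp upstream of the 5' end, with a signal of 15.6 and rank 4235. The nearest summit upstream of fat-3 was 1352 bp away in replicate 1 and 1353 bp in the pool. The candidate shared with fat-4 lay 1353 bp upstream of fat-3 and in an intron of fat-4, with the replicate 1 summit 234 bp from an annotated fat-4 transcript start. It had a signal of 20.2 in replicate 1 (rank 2819), 7.68 in replicate 2 (rank 26494) and 19.3 in the pool (rank 12658). Here too replicate 1 ranked the candidate higher. The window at this summit held TGATAA.

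fat-4 (IV 9799429 to 9802226, plus strand) had a further candidate close to its own 5' end. It lay 195 bp into the gene in the pool and 205 bp in replicate 1, both in an intron, and 158 bp in replicate 2, in a coding exon. The signal was 11.2 in replicate 1, 9.49 in replicate 2 and 23.3 in the pool (rank 7179). Replicate 2 also had one 1756 bp upstream, with a signal of 7.30, nearer to the 5' end of T13F2.2 (319 bp). The next candidate of replicate 2 upstream, just outside the window, was 2162 bp from the 5' end, with a signal of 7.70.

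Among the elongases, elo-2 came nearest to the called range. ELO-2 lengthens palmitic acid, and its gene lies at IV 17466062 to 17467408 (minus strand). A candidate 441 bp upstream had a signal of 19.7 in replicate 1 (rank 3071), 12.2 in replicate 2 (rank 8878) and 33.0 in the pool (rank 2735). The lowest called peak, for comparison, had 49.9. The summits of the 2 replicates lay 37 and 6 bp from the pooled one, and the bases within 50 bp of the summit held TGATAA, with a G and C share of 24.8%. A second pooled candidate 1295 bp upstream, with a signal of 21.8, overlapped a candidate of replicate 1 (14.5) and none of replicate 2. The nearest called summit was 188829 bp from the 5' end of elo-2.

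ELO-1 lengthens gamma-linolenic acid on the way to arachidonic acid. At elo-1 (IV 9526366 to 9528336, plus strand) the strongest pooled candidate was 1172 bp upstream, with a signal of 26.8 (rank 4743). The strongest candidates that overlapped it had 18.9 in replicate 1 (rank 3504) and 11.6 in replicate 2 (rank 10327). Their summits lay 125 and 61 bp from the pooled one, at 1297 and 1111 bp upstream. Replicate 1 had a second, weaker overlapping candidate 1098 bp upstream (11.4, rank 16137), which was nearer to the replicate 2 summit. It also had one in an intron, 552 bp into elo-1 (12.6, rank 12454) and 90 bp from an elo-1 transcript start. The pooled summit lay nearer to the divergent neighbour ndua-5, at 295 bp from its 5' end, than to elo-1. A peak between divergent genes cannot be given to one of them from its position. Just outside the window, 2088 bp upstream, was a pooled candidate with a signal of 16.6.

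ELO-5 makes the monomethyl branched-chain fatty acids that worms need to grow past the first larval stage. elo-5 (IV 5374616 to 5377117, minus strand) had 4 pooled candidates, more than any other gene of the family, the highest at rank 8565. The strongest, 668 bp upstream, had a signal of 22.1 in the pool, overlapped a candidate of replicate 1 with a signal of 10.2 and overlapped none of replicate 2. One in a coding exon, 628 bp into the gene, was in both replicates, with signals of 11.7 in replicate 1 and 14.3 in replicate 2, and held rank 13102 in the pool. The replicate 2 summit was 248 bp from the pooled one. The candidate 2027 bp into the gene overlapped a candidate of replicate 1 alone (signal 13.4), and that 1598 bp upstream overlapped one of replicate 2 alone (10.2).

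**Figure D3:**
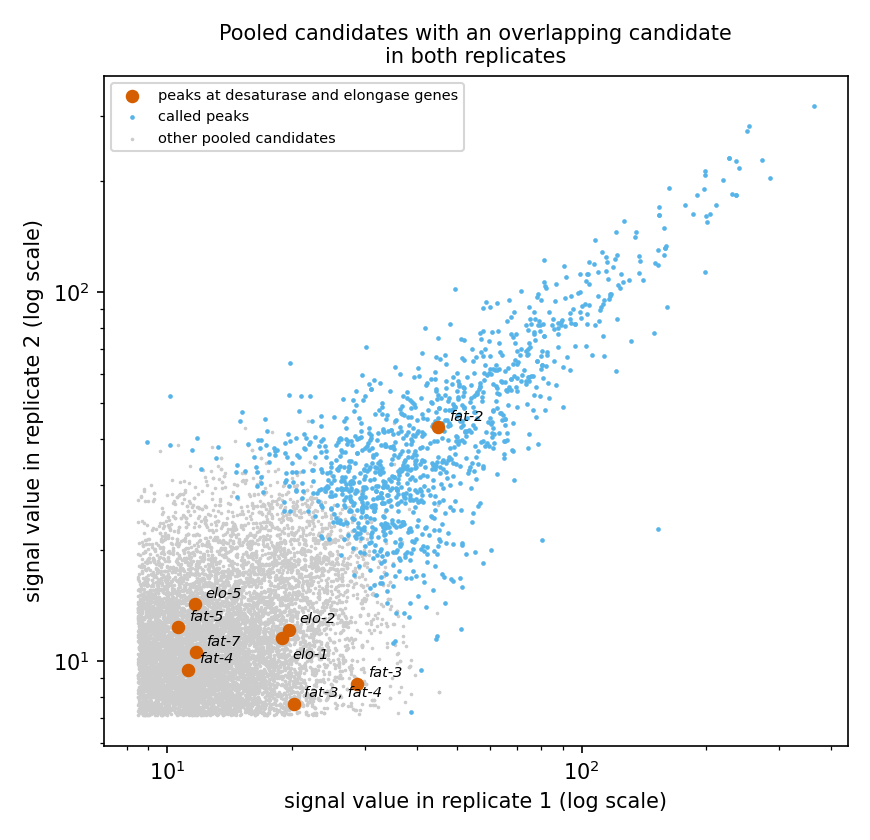
Signal value in replicate 1 (x axis) and replicate 2 (y axis), both on log scales, for pooled candidates that overlap a candidate in each replicate; orange points are peaks at the 10 genes, blue points called peaks and grey points other candidates. fat-2 sits among the called peaks at 45.1 and 43.2, and the 8 other peaks at these genes lie among the uncalled candidates, with fat-3 at 28.8 and 8.70.

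Over the family, the 15 pooled candidates had signals from 13.7 to 79.2, with a median of 20.1, against a median of 18.4 over all pooled candidates. Of the 15, 9 overlapped a candidate in each replicate, 5 overlapped one of replicate 1 only and 1 of replicate 2 only. Over all pooled candidates 39.2% overlapped a candidate in each replicate. Counting the shared candidate as upstream of fat-3, 8 lay upstream, 4 in introns and 3 in coding exons. The word TGATAA was within 50 bp of 5 of the 15 summits, at fat-3 and fat-4 (shared), fat-6, elo-2 and elo-5 (2 candidates), where 9.23% of all pooled candidates and 5.35% of called peaks held it. AGGTCA was at 1 of 15 (2.33% of all pooled candidates), AGTGCA at 1 (3.42%), GAGAGA at 1 (8.35%), and AAGTCA (4.36%) and GACGCA (3.46%) at none. A match is a description of the sequence, and the 15 windows are too few to rank the words.

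Ranked by its strongest pooled candidate among the 13102 protein-coding genes that had one, fat-2 was above 95.1% of genes. elo-2 was above 79.1%, elo-1 above 68.5%, fat-4 above 57.7%, fat-5 above 54.4% and elo-5 above 52.0%. fat-7 was above 41.8%, fat-3 above 36.8% and fat-6 above 16.7%. The median strongest signal was 22.6 over the 9 genes and 21.6 over all genes with a candidate. Apart from fat-2 the family thus spread over the range of genes in general.

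**Figure D4:**
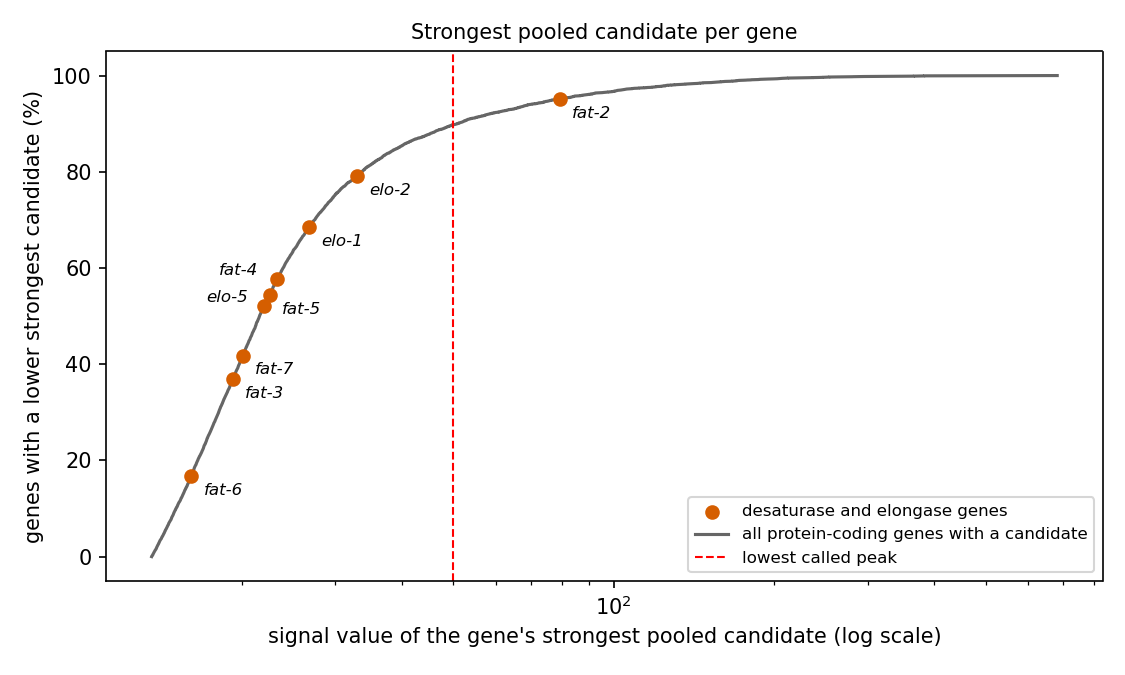
Share of protein-coding genes (y axis, %) whose strongest pooled candidate has a lower signal than the value on the x axis (log scale); orange points are the 9 desaturase and elongase genes with a candidate, the grey line is all 13102 genes with one and the dashed line the lowest called signal. fat-2 alone lies right of the line, and the other genes run from fat-6 at 16.1 to elo-2 at 33.0.

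Other genes of lipid metabolism were taken from 7 lists of 73 genes in all. Of these, 61 had a pooled candidate and 11 had a called peak in the window, or 15.1%, beside 6.7% over all protein-coding genes. The median strongest pooled signal over the 61 was 24.3. None of the 9 other elongation genes (elo-3, elo-4, elo-6 to elo-9, hpo-8, let-767 and art-1) and none of the 3 electron donor genes had a called peak. The list drawn up as desaturase regulators had 1 of 9, in nhr-66, a nuclear receptor gene. Whether NHR-66 acts on the desaturases was not tested. The summit lay in an intron, 789 bp from a transcript start of nhr-66. Its signal was 55.2, with 16.4 in replicate 1 and 32.5 in replicate 2. nhr-49, nhr-80, nhr-13, sbp-1, mdt-15 and the rest of that list had none in this window. With 5 kb upstream, sbp-1 and the electron donor gene emb-8 had one. Fatty acid synthesis had 1 of 5, at mlcd-1, whose product breaks down malonyl-CoA, with a signal of 65.8, where the 5' end of idhg-1 was nearer.

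The 3 remaining lists, with 47 of the 73 genes, had 9 of the 11, and each count stands beside the 6.7% over all protein-coding genes. The beta-oxidation list had 4 of 16. cpt-2, a carnitine palmitoyltransferase gene of mitochondrial import, had a called peak 241 bp upstream with a signal of 130, from 71.8 in replicate 1 and 59.6 in replicate 2. acdh-7 and acdh-10, acyl-CoA dehydrogenase genes, shared one with a signal of 53.4 in an intron of acdh-7, whose 5' end was the nearer, and kat-1, a thiolase gene, had one with 57.8, nearer to kars-1. The acyl-CoA synthetase list had 2 of 8. acs-2, a fasting-induced mitochondrial acyl-CoA synthetase gene and a known NHR-49 target, had one 747 bp upstream at signal 92.2, from 52.6 in replicate 1 and 40.9 in replicate 2, and acs-19 had one with 76.2, nearer to brc-1. The storage and binding list had 3 of 23: atgl-1, the main triglyceride lipase gene, with 140 at 1728 bp upstream, lipl-2, a lysosomal lipase gene, with 207 but nearer to ztf-7, and plin-1, the perilipin gene, with 68.6 at 125 bp upstream. The 11 genes hold 10 separate peaks, since acdh-7 and acdh-10 share one. In 5 of the 11 the nearest protein-coding 5' end belonged to another gene. No gene of the intestine marker list (0 of 10) or the epidermis marker list (0 of 7) had a called peak, and with 6.7% called over all protein-coding genes these lists are too short for a count of 0 to differ from the background.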

How the data were processed

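ChIP-seq peak lists in narrowPeak format were used for 2 biological replicates of 1 group, on the ce11 build. Column 7, the signal value of each peak, was deposited by the authors on a scale not given in the sources used here; the aligner, the peak caller, their versions, the IDR threshold and the extraction protocol are not given either. Per the deposited notes a control file entered the calls, and control reads were not analysed here. Of the pooled intervals 99.3% were 370 bp wide, among them the called peak of fat-2. The 187 called peaks narrower than that had a median signal of 175, and the other 954 one of 67.8. Lists on ce10 were not used.

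Genes came from Ensembl release 115 (WBcel235), and no peak passed a chromosome end. A gene's window ran from 2 kb upstream of its outermost 5' end to its 3' end, and a peak was in it when its summit was. Ranks are by signal within a list, peaks overlapped at 1 bp or more, and words of 6 bases were searched up to 50 bp from the summit, on either strand. Coding sequences were aligned globally with Biopython 1.88, and uniqueness used words of 30 bases. No test was run: with 1 group, counts stand beside the same count over all protein-coding genes. The genes named were the 10 members, the gene with the nearest 5' end, and every other lipid gene with a called peak. The members and lists were chosen with earlier results of these data known. Alternatives changed the window, the overlap rule, the called set and the assignment of shared peaks. Counting in windows was tested on simulated peaks. Python 3.11.15, numpy 2.4.6, pandas 2.3.3 and matplotlib 3.10.9 were used.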

Additional observations from a re-analysis of the deposited data

How the results depend on the processing

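The count of the 10 genes with a called peak was 1 (fat-2) with a window of 5 kb upstream, with the upstream part alone, with any overlap of the peak interval, among the 570 strongest called peaks and with peaks given to the nearest 5' end. It was 0 with 1 kb upstream, because the fat-2 summit lies 1198 bp from the gene. With the highest candidates of 1 replicate in place of the called set it ranged from 1 to 2, the second gene being fat-3 in replicate 1. The count with a pooled candidate ranged from 6 (upstream part alone) to 10 (5 kb upstream, which takes in one near fat-1). With peaks given to the nearest 5' end it was 7, without fat-7 and elo-1. The share over all protein-coding genes is not given for these settings, so these counts have no background beside them. Pooled candidates in the windows numbered 15, 24 with 5 kb upstream and 8 with the upstream part alone, and ranged from 14 to 21 with the 28727 highest candidates of 1 replicate (16 and 23 with all 30000 of replicate 2 and of replicate 1). All protein-coding genes with a called peak numbered 1338, 1081 with 1 kb upstream, 1951 with 5 kb, 714 with the 570 strongest, 854 by nearest 5' end, and 1300 to 1345 with 1 replicate. The other lipid genes with a called peak numbered 11, 6 with 1 kb upstream, 15 with 5 kb, 5 with the 570 strongest, 6 by nearest 5' end, and 10 with either replicate. The genes added with 5 kb were acdh-1, cpt-1, emb-8 and sbp-1. Words searched up to 100 bp from the 15 summits gave 2 for AGGTCA (4.68% of all pooled candidates), 2 for AGTGCA (6.70%), 6 for TGATAA (17.8%) and 3 for GAGAGA (14.6%). Among called peaks the 100 bp shares were 4.73%, 10.4%, 11.1% and 44.1%. No paired analysis was possible because there is 1 group. The 570 strongest apply to called peaks only. Without read counts, weak regions and shallow sequencing cannot be told apart.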
